A study of Homo sapiens with 8 samples.

Results

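The transcription factor NRF2, encoded by NFE2L2, switches on genes that detoxify electrophiles and keep glutathione and thioredoxin reduced. In resting cells its partner KEAP1 holds it in the cytoplasm and directs its degradation. When KEAP1 is modified or sequestered, NRF2 enters the nucleus, pairs with a small MAF protein and binds the antioxidant response element, a short DNA motif at which the repressor BACH1 competes with it. Its target genes supply cystine and glutathione, run the thioredoxin cycle, reduce quinones and carbonyls, break down heme, regenerate NADPH and pump conjugates out of the cell. In liver cells this program is a standard part of the handling of drugs and environmental chemicals.

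The 31 genes described here are NRF2, KEAP1, BACH1, the small MAF gene MAFG and 27 target genes, given as a list of symbols and matched to Ensembl identifiers among the 60230 genes of the count table. They were ordered in 8 arms: regulators, glutathione, thioredoxin, quinone and carbonyl, heme, NADPH, efflux and other targets. All 31 symbols were found. A total of 30 passed the filter on low counts, together with 13404 genes in all. The remaining gene, ME1, the cytosolic malic enzyme that makes NADPH, had 0 counts in every library. With the depths given next, 3 counts, the floor used here, came to 0.225 to 0.317 CPM, a unit in which every library has the same total, and covers counting error only.

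The cells were HepG2, a widely used human liver cancer line, here a derivative that overexpresses the drug-metabolizing enzyme cytochrome P450 3A4 (CYP3A4) and is grown in blasticidin. All 4 groups carry CYP3A4 and had 2 replicates each, labelled day 1 and day 2. The control group received 0.2% DMSO, and the others received compound 4, 5 or 6 (named metylcresol, tetrabut and cyclohexil in the labels) for 24 h. The compounds are bisphenol antioxidants of plastics. In compound 4 a methylene bridge joins phenol rings with tert-butyl and methyl groups, in compound 6 cyclohexyl groups replace the tert-butyl groups, and compound 5 has an ethane bridge and tert-butyl groups only. Each compound was given at its own IC50, so the concentrations differed, and compound and concentration cannot be told apart. Cells without this overexpression were not analysed here. Whether the replicates were separate cultures is not stated in the sources used here, so p-values measure only the spread between these samples, which may be technical.

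Library totals ran from 9472261 to 13308975 counts. Summed hepatocyte markers, 10 genes none of which was at 0, reached 40044 to 41888 CPM with DMSO and 31491 to 38435 CPM in the treated libraries. For 4 of the 10 (ALB, AFP, APOA1 and TF) every treated library was below both DMSO libraries, AFP for example with 3266 to 3486 CPM in DMSO and 2016 to 2727 CPM with treatment, and for the other 6 treated and DMSO libraries overlapped. The share of all genes with this pattern was not counted, so 4 of 10 cannot be set against it. The mitochondrial share of counts was 4.91% to 5.12% with DMSO and 5.31% to 6.21% in the treated libraries. Of 6 fibroblast markers 3 were at 0 in every library (COL1A2, DCN and LUM), and the list summed to 1.64 to 2.66 CPM with DMSO and 2.67 to 8.72 CPM in the treated libraries, nearly all of it PDGFRB. Of 5 leukocyte markers PTPRC and CD3E were at 0 in every library, and the list summed to 2413 to 3035 and 1891 to 2699 CPM, nearly all of it LYZ, with CD68 at 27.2 to 57.6 CPM. Of 4 endothelial markers KDR was at 0 in every library and the list summed to at most 2.06 CPM. The part of these shifts in the results was not tested. Replicates differed most in the compound 4 group, with a chi-square per degree of freedom of 17.2 against 5.51 to 9.07 in the other groups. In that group replicate 2 read lower than replicate 1 for long transcripts and higher for short ones: the median log2 ratio was -0.21 among the 25% of genes with the longest transcripts and 0.16 among the 25% with the shortest. A length trend also lay between groups, and with compound 5 the median log2 fold change over DMSO was -0.17 among the 25% shortest and 0.11 among the 25% longest. Its part in the results was tested by removing the trend, an alternative chosen after seeing the data, and calls of the listed members that this changed are given beside the result.

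The motif itself is shown first, in members that later differed in their response. The core of the antioxidant response element was searched as TGACNNNGC on both strands in RefSeq promoter windows of the GRCh38.p14 build, 300 bases each, from 250 bases before the start site to 50 after it. Windows were listed for 24 members, 32 windows in all. The core occurred in 10 of these windows (31.3%), against 13.3% of 35116 windows of the same length, and in 9 of the 24 members (37.5%), against 16.1% of 27305 genes. SLC7A11, HMOX1, GSR, PRDX1, AKR1B10, ABCC3 and TRIM16L had no window. The windows below hold a match in GCLM and TXNRD1, which rose with every compound, in GPX2, which was not called with any, and in PIR, which was lower with compound 5. Capitals mark the match, and each sequence reads 5′ to 3′ on the strand of the gene.
GCLM, chr1:93909381-93909680, minus strand: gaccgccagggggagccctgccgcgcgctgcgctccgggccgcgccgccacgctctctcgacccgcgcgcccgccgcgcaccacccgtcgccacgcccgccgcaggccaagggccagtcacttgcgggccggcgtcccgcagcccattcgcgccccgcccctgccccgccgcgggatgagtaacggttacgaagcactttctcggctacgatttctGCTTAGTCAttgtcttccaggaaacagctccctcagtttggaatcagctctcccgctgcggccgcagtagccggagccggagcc
TXNRD1, chr12:104286782-104287081, plus strand: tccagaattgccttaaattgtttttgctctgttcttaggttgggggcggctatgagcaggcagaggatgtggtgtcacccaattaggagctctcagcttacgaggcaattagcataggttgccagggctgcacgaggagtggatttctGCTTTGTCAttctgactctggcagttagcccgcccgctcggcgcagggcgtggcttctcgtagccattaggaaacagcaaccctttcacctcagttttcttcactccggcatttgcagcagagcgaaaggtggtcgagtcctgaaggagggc
GPX2, chr14:64942696-64942995, minus strand: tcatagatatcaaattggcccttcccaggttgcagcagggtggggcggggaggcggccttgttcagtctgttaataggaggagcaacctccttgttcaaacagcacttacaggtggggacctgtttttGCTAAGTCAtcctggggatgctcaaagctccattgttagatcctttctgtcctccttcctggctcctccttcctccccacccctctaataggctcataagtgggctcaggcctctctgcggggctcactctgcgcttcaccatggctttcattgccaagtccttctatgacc
PIR, chrX:15493284-15493583, minus strand: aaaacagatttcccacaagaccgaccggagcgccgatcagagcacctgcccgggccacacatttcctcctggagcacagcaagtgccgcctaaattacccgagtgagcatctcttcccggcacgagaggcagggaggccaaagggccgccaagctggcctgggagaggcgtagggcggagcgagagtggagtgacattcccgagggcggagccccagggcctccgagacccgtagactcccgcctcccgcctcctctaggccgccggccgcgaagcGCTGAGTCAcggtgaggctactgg
In GCLM the match began 34 bases before the start site, in TXNRD1 102 bases before, in GPX2 122 bases before and in PIR 26 bases after. In all 4 the letters lay on the opposite strand. KEAP1 also held the core, 54 and 31 bases before its start site, and the letters nearest the start, GCTTAGTCA, were those of GCLM. A second TXNRD1 window, chr12:104215529-104215828, held the core 99 and 8 bases before its own start site. The other members with a match were CBR1, EPHX1, PGD and ME1. Of the members called higher with all 3 compounds, 2 of the 6 with a window held a match. Of those called with no compound, 3 of the 7 with a window did. A match in a window is a run of letters and not a measured binding site.

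Levels are given below as CPM scaled by TMM, a correction for library composition, and changes as log2 fold changes from edgeR with their standard error (SE). A gene was called when its Benjamini-Hochberg adjusted p, taken over all 13404 genes tested, was under 0.05. The 3 comparisons with DMSO share the same DMSO libraries. An exact permutation test was not used, since 2 libraries against 2 cannot reach the threshold.

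Of the 30 members tested, 15 rose and 0 fell with compound 4. Over all genes tested, 6.5% were called higher and 5.42% lower with it. With compound 5, 17 members rose and 2 fell (13.9% and 14.2% of all genes). Compound 6 raised 9 and lowered 0 (2.8% and 1.6% of all genes). The median log2 fold change of the members was 0.38, 0.54 and 0.33 with compounds 4, 5 and 6, and that of all genes tested was 0.00, -0.03 and 0.00. When 1 library was left out, the member medians ran from 0.32 to 0.50, 0.46 to 0.60 and 0.20 to 0.46. Both treated libraries lay above both DMSO libraries for 23, 22 and 20 members in the same order, where the shares of all genes were 27.5%, 32.9% and 26.3%. Both lay below for 0, 6 and 1 members, and the matching shares of all genes are not given here.

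**Figure D1:**
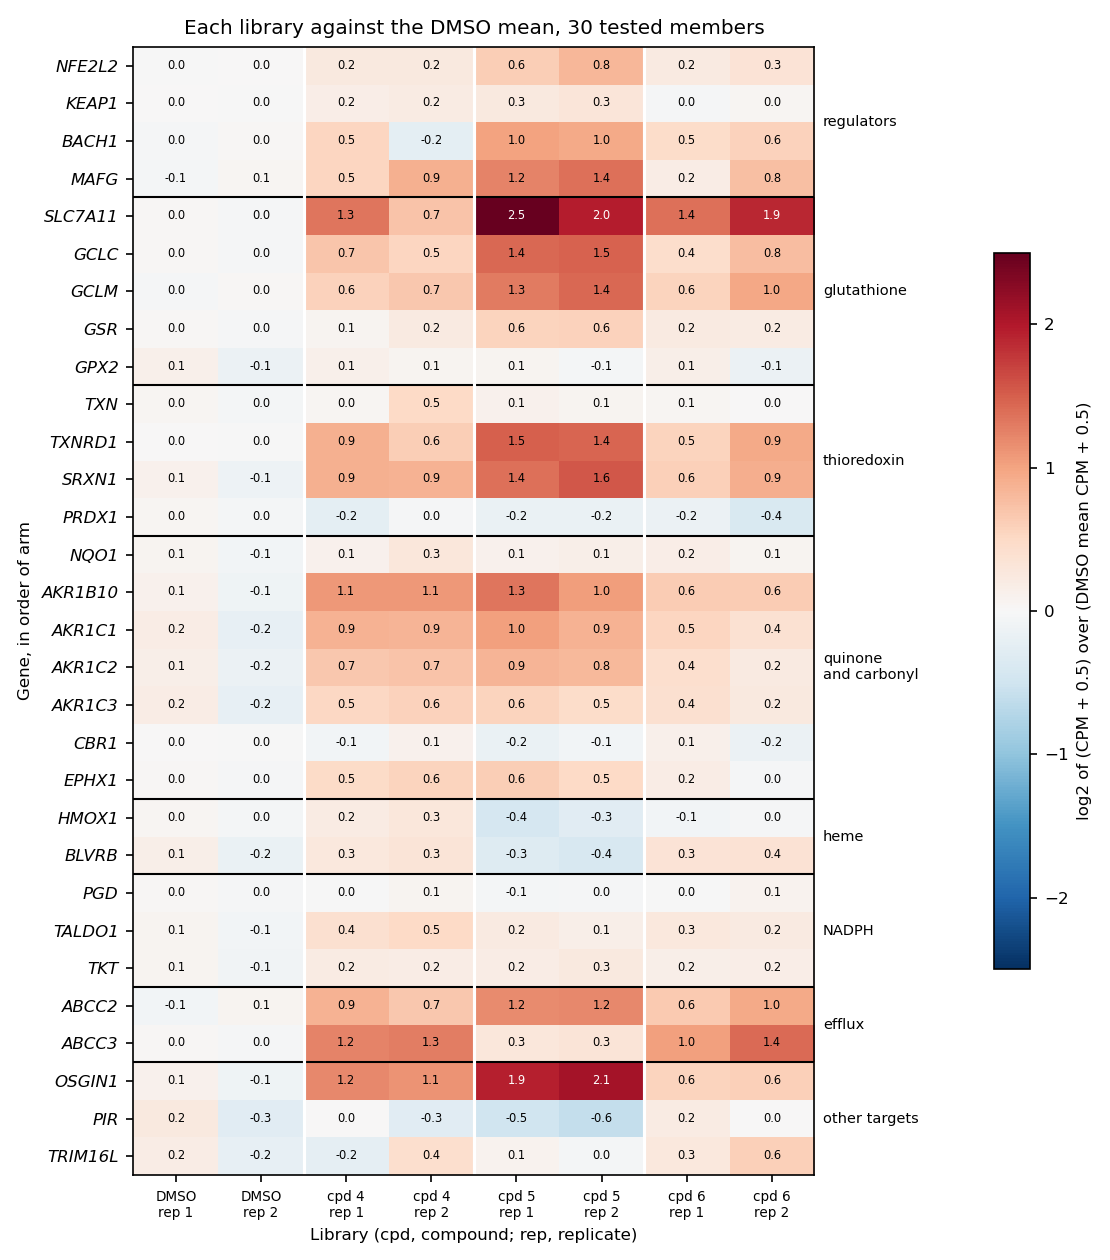
Heat map of the 30 tested members (rows, by arm) in the 8 libraries (columns), coloured by log2 of CPM plus 0.5 over the DMSO mean plus 0.5. The SLC7A11, GCLC, GCLM, TXNRD1, SRXN1, ABCC2 and OSGIN1 rows are reddest with compound 5, whereas ABCC3 is reddest with compounds 4 and 6, and HMOX1 and PIR are blue with compound 5.

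Among the regulators, NFE2L2 (ENSG00000116044, chr2:177227595-177392697 in GRCh38) had 235 and 237 CPM with DMSO, 280.1 and 279 CPM under compound 4, 364 and 420.3 CPM under compound 5, and 276 and 299 CPM under compound 6. Every treated library lay above the DMSO pair, and the compound 5 pair lay above all others. The change passed the test with compound 5 (log2 fold change 0.73, SE 0.10, adjusted p = 0.000808). With compound 4 it was 0.24 (SE 0.10, adjusted p = 0.159) and with compound 6 it was 0.28 (SE 0.10, adjusted p = 0.156), neither called. KEAP1, the adaptor that presents NRF2 for ubiquitination, read 121 and 120.0 CPM with DMSO and 143 and 149 CPM under compound 5, against 134 and 139 CPM under compound 4 and 119 and 125 CPM under compound 6. Its change with compound 5, 0.28 (SE 0.10, adjusted p = 0.0489), lay at the threshold. It was not called with the replicate number as a block (adjusted p = 0.0557), with no filter (0.0743) or under upper-quartile or library-size scaling (0.151 and 0.177). When 1 library was left out the estimate ran from 0.25 to 0.34.

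BACH1, the repressor at the same motif, had 17.6 and 18.2 CPM with DMSO, 26.1 and 14.98 CPM under compound 4, 36.6 and 35.2 CPM under compound 5, and 24.9 and 27.0 CPM under compound 6. The compound 4 libraries fell on both sides of DMSO, for a reason that was not tested. BACH1 is among the 25% longest transcripts, for which these libraries differed most. It rose with compound 5 (1.00, SE 0.21, adjusted p = 0.00577) and was not called with compound 4 (0.19, SE 0.21, adjusted p = 0.61) or compound 6 (0.54, SE 0.21, adjusted p = 0.184), although it was called with compound 6 with no filter (adjusted p = 0.0214), in a fit of only the groups compared (0.0376) and without either replicate of compound 4 (0.0257 and 0.0203). Without replicate 1 of compound 4 its estimate with compound 4 was -0.26, and without replicate 2 it was 0.56 and called (adjusted p = 0.0353). MAFG, a dimer partner of NRF2, had 52.3 and 56.4 CPM with DMSO, 79.4 and 101 CPM under compound 4, 129 and 141 CPM under compound 5, and 61.5 and 91.9 CPM under compound 6. No treated library overlapped DMSO. MAFG rose with compound 4 (0.74, SE 0.18, adjusted p = 0.0242) and compound 5 (1.31, SE 0.18, adjusted p = 0.000683) and was not called with compound 6 (0.50, SE 0.18, adjusted p = 0.149, and 0.00544 with no filter). Without replicate 1 of compound 6 that estimate was 0.78 and called (adjusted p = 0.0191), and without replicate 2 it was 0.19.

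Of the 5 glutathione genes, 3 rose with compound 4, 4 with compound 5 and 3 with compound 6. SLC7A11, the cystine importer that feeds glutathione synthesis (chr4:138164097-138242349), had the largest estimate of the members with compounds 5 and 6. It had 55.04 and 53.3 CPM with DMSO, 137 and 89.4 CPM under compound 4, 311 and 213 CPM under compound 5, and 141 and 200.3 CPM under compound 6. The treated libraries were all well above DMSO, but the 2 libraries of each compound were far apart. Its log2 fold changes were 1.06 (SE 0.24, adjusted p = 0.016), 2.27 (SE 0.24, adjusted p = 0.0002) and 1.66 (SE 0.24, adjusted p = 0.00642) with compounds 4, 5 and 6.

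GCLC and GCLM are the catalytic and modifier subunits of glutamate-cysteine ligase, the rate-limiting enzyme of glutathione synthesis. GCLC had 159 and 151 CPM with DMSO, 251 and 225 CPM under compound 4, 419 and 434 CPM under compound 5, and 210.1 and 267 CPM under compound 6. GCLM had 50.4 and 52.7 CPM with DMSO, 77.1 and 82.5 CPM under compound 4, 128 and 141 CPM under compound 5, and 76.1 and 102 CPM under compound 6. Both subunits were raised with no overlap with DMSO, by 1.53-fold, 2.75-fold and 1.54-fold for GCLC and by 1.55-fold, 2.6-fold and 1.73-fold for GCLM with compounds 4, 5 and 6. The adjusted p-values were 0.0106, 9.29e-05 and 0.0236 for GCLC and 0.0156, 0.000157 and 0.0141 for GCLM.

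GSR, the reductase that recycles oxidized glutathione, had 201 and 194 CPM with DMSO, 208 and 231 CPM under compound 4, 291 and 296 CPM under compound 5, and 229.6 and 226 CPM under compound 6. Only its change with compound 5 passed the test (0.57, SE 0.10, adjusted p = 0.00212). The glutathione peroxidase GPX2, whose window is printed above, lay between 349.8 and 426 CPM in all libraries, and its log2 fold changes were 0.09, 0.01 and 0.00.

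The thioredoxin arm split into members that rose and members that were not called. TXNRD1, thioredoxin reductase, had 363 and 362 CPM with DMSO, 671 and 553 CPM under compound 4, 1029 and 989 CPM under compound 5, and 530.2 and 696 CPM under compound 6. Its changes were 0.75 (SE 0.14, adjusted p = 0.00691), 1.48 (SE 0.14, adjusted p = 0.00011) and 0.76 (SE 0.14, adjusted p = 0.0161) with compounds 4, 5 and 6. SRXN1, sulfiredoxin, which repairs over-oxidized peroxiredoxins, had 139 and 118 CPM with DMSO, 239 and 236 CPM under compound 4, 334 and 379.8 CPM under compound 5, and 195 and 241 CPM under compound 6. It changed by 0.89 (SE 0.13, adjusted p = 0.00212), 1.48 (SE 0.13, adjusted p = 9.66e-05) and 0.77 (SE 0.13, adjusted p = 0.0123). Of the 31-base words of SRXN1 transcripts, 84.9% also occur in the overlapping gene model AL121758.1, which had at most 0.785 CPM.

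The substrate of the reductase, thioredoxin itself (TXN), had 215 and 204 CPM with DMSO and 217 and 297 CPM under compound 4, and lay between 211 and 226 CPM under compounds 5 and 6. TXN is among the 25% shortest transcripts. Its estimates of 0.29, 0.08 and 0.03 were not called, with lowest adjusted p 0.192 with compound 4, but it was called without replicate 1 of compound 4 (0.50, adjusted p = 0.0131) and, with compound 5, when the length trend was removed (0.32, adjusted p = 0.0265). PRDX1, a peroxiredoxin that takes electrons from thioredoxin, lay between 650.4 and 869 CPM with estimates of -0.13, -0.17 and -0.26, none called.

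**Figure D2:**
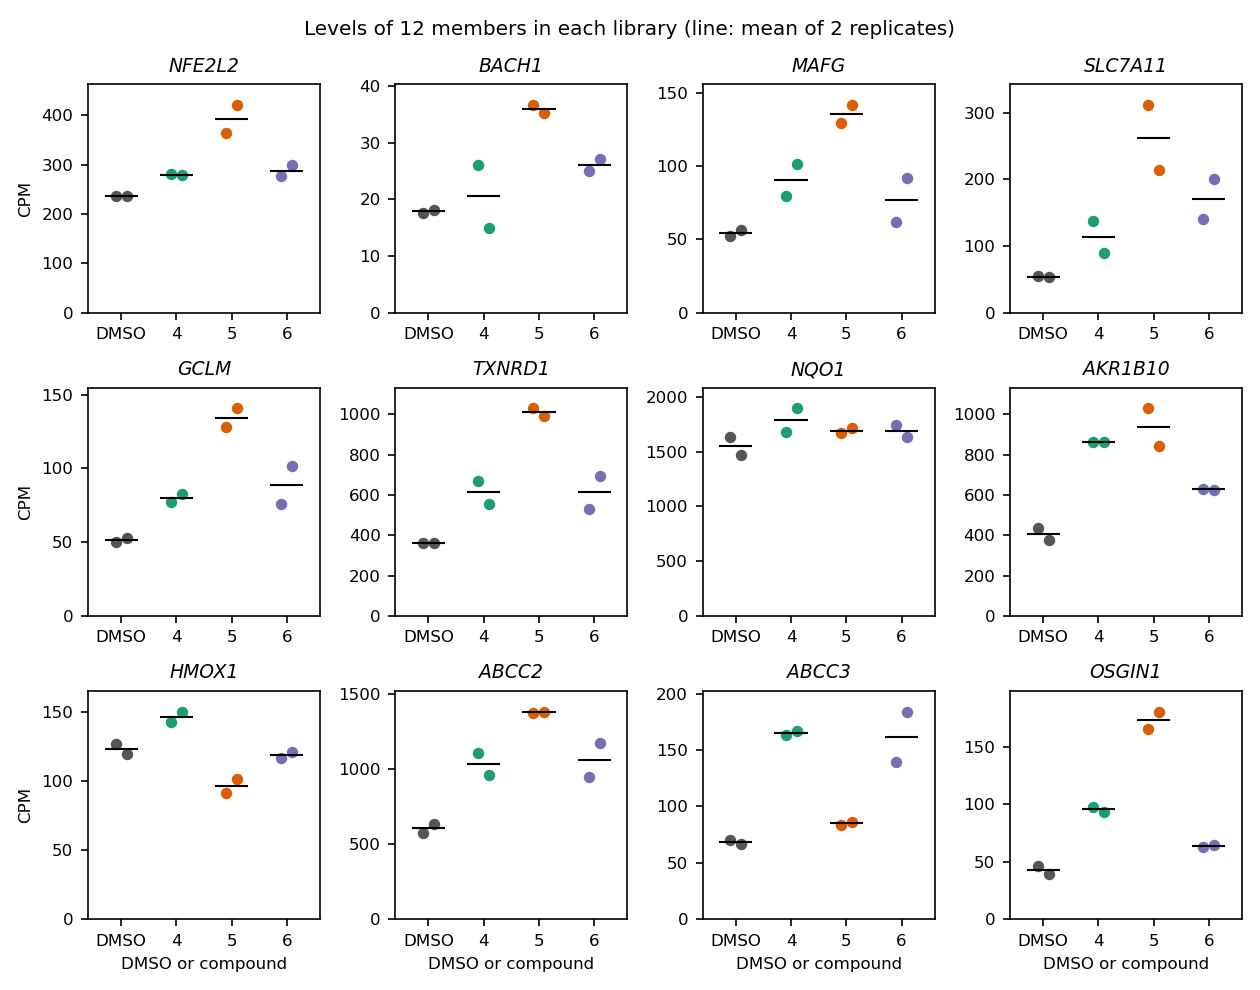
CPM of 12 members (vertical axis, from 0) in the DMSO group and with compounds 4, 5 and 6, 1 point per library and a line at the mean of 2. NFE2L2, BACH1, MAFG, SLC7A11, GCLM, TXNRD1, ABCC2 and OSGIN1 are highest with compound 5, ABCC3 is lower with compound 5 than with compounds 4 and 6, and NQO1 libraries of all groups lie close together.

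In the quinone and carbonyl arm, 5 of 7 genes rose with compound 4, 5 with compound 5 and 1 with compound 6. NQO1, the quinone reductase often used as a readout of NRF2 (chr16:69706996-69726951), had 1635 and 1471 CPM with DMSO, 1679.6 and 1893 CPM under compound 4, 1670.0 and 1714 CPM under compound 5, and 1738 and 1629.9 CPM under compound 6. No change was called. The estimates were 0.20 (95% interval -0.03 to 0.44), 0.12 (-0.11 to 0.36) and 0.12 (-0.12 to 0.35), with an upper bound of at most 0.44. AKR1B10, an aldo-keto reductase of retinal and lipid aldehydes, had 438 and 375 CPM with DMSO, 866 and 864 CPM under compound 4, 1029.8 and 842 CPM under compound 5, and 629 and 627 CPM under compound 6. It rose by 1.09 (SE 0.12, adjusted p = 0.000662), 1.20 (SE 0.12, adjusted p = 0.000157) and 0.63 (SE 0.12, adjusted p = 0.0189).

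The aldo-keto reductases AKR1C1, AKR1C2 and AKR1C3, which reduce steroids and carbonyl compounds, lie side by side on chromosome 10 between 4963253 and 5107686. AKR1C1 had 2578 and 1953 CPM with DMSO, 4147 and 4101 CPM under compound 4, 4612 and 4159 CPM under compound 5, and 3282 and 2931 CPM under compound 6. AKR1C2 had 115 and 94.2 CPM with DMSO, 166 and 172 CPM under compound 4, 189.5 and 185 CPM under compound 5, and 139.7 and 123 CPM under compound 6. Because 35.7% and 48.2% of their 31-base words are shared with other genes, mainly with each other, the division of reads between these genes is uncertain. Their sum had 2693 and 2047 CPM with DMSO, 4313 and 4272 CPM under compound 4, 4801 and 4344 CPM under compound 5, and 3422 and 3054 CPM under compound 6, so the summed levels of all treated libraries were above DMSO. AKR1C1 rose with compounds 4 and 5 (0.86 and 0.95, adjusted p = 0.00309 and 0.000818) and was not called with compound 6 by edgeR (0.46, adjusted p = 0.0832), but was by DESeq2 (adjusted p = 0.0181) and with no filter (0.000337). For AKR1C2 the changes were 0.69, 0.84 and 0.33 (adjusted p = 0.00492, 0.000808 and 0.152).

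AKR1C3 had 383 and 295 CPM with DMSO, 488 and 504 CPM under compound 4, 501 and 468 CPM under compound 5, and 449 and 403 CPM under compound 6. It rose with compounds 4 and 5 (0.55 and 0.52, SE 0.13, adjusted p = 0.0198 and 0.0137). EPHX1, the microsomal epoxide hydrolase, had 132 and 126 CPM with DMSO, 180.1 and 191 CPM under compound 4, 199 and 183 CPM under compound 5, and 147 and 127 CPM under compound 6. The compound 6 pair sat next to DMSO, and only compounds 4 and 5 gave calls (0.52 and 0.57, SE 0.11, adjusted p = 0.0115 and 0.00394, against 0.08, adjusted p = 0.735, with compound 6). CBR1, a carbonyl reductase, lay between 19.2 and 23.8 CPM throughout and was not called.

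In the heme arm 0 of 2 genes were called higher with any compound and 1 was lower with compound 5. HMOX1, heme oxygenase, which opens the heme ring and is a well-known NRF2 and BACH1 target (chr22:35380361-35394214), had 127 and 119.5 CPM with DMSO, 143 and 150.1 CPM under compound 4, 91.6 and 101 CPM under compound 5, and 117 and 121 CPM under compound 6. The compound 5 libraries were the lowest of the 8 and the compound 4 libraries the highest. The log2 fold change with compound 5 was -0.36 (SE 0.10, adjusted p = 0.0256). HMOX1 is among the 25% shortest transcripts, and with the length trend removed its change with compound 5 was -0.20 and not called (adjusted p = 0.0963). It was also not called without filter (adjusted p = 0.0611) or without either replicate of DMSO or of compound 5 (0.0632 to 0.228). With compounds 4 and 6 the estimates were 0.25 (adjusted p = 0.142) and -0.05 (adjusted p = 0.839). BLVRB, a biliverdin reductase, had 17.9 and 14.5 CPM with DMSO, 12.9 and 12.1 CPM under compound 5 and between 19.6 and 20.8 CPM under compounds 4 and 6, and no change against DMSO was called (0.31, -0.37 and 0.36). Under upper-quartile and library-size scaling BLVRB was called lower with compound 5 (adjusted p = 0.0421 and 0.0308).

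The NADPH arm showed 1 call. TALDO1, transaldolase of the pentose phosphate pathway, had 178 and 162 CPM with DMSO, 224 and 239.9 CPM under compound 4, 199 and 188 CPM under compound 5, and 205 and 199 CPM under compound 6. All treated libraries exceeded DMSO, and the change passed the test with compound 4 (0.45, SE 0.10, adjusted p = 0.0159). With the length trend removed it was also called with compound 5 (0.38, adjusted p = 0.0057) and compound 6 (0.31, adjusted p = 0.0451). PGD, 6-phosphogluconate dehydrogenase, stayed between 260.5 and 288 CPM, and its intervals lay within -0.25 to 0.25. TKT, transketolase, ran from 565 CPM in a DMSO library to 709 CPM in a compound 5 library with estimates of 0.20, 0.22 and 0.16, none called.

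The efflux pumps ABCC2 and ABCC3, which export glutathione and glucuronide conjugates at the apical and basolateral membrane, had calls with every compound between them. ABCC2 had 575 and 634 CPM with DMSO, 1109 and 961 CPM under compound 4, 1374 and 1383 CPM under compound 5, and 946 and 1173 CPM under compound 6. It rose by 1.71-fold, 2.28-fold and 1.75-fold (adjusted p = 0.00352, 0.000203 and 0.00879). ABCC3 (chr17:50634777-50692252) had 70.3 and 67.1 CPM with DMSO, 163 and 167 CPM under compound 4, 83.9 and 86.5 CPM under compound 5, and 139.7 and 184 CPM under compound 6. It rose by 2.4-fold with compound 4 (adjusted p = 0.000442) and 2.36-fold with compound 6 (adjusted p = 0.00425). With compound 5 the log2 fold change was 0.31 (SE 0.13, adjusted p = 0.0987), and it was called in a fit of only the groups compared (adjusted p = 0.0117).

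Among the other targets, OSGIN1, an oxidative stress-induced growth inhibitor (chr16:83948282-83966332), had 45.9 and 39.2 CPM with DMSO, 98.0 and 93.7 CPM under compound 4, 165 and 181 CPM under compound 5, and 62.6 and 64.6 CPM under compound 6. The 4 groups did not overlap. The changes were 1.17 (SE 0.11, adjusted p = 0.000338), 2.03 (SE 0.12, adjusted p = 1.98e-05) and 0.58 (SE 0.11, adjusted p = 0.0215). PIR, pirin, an iron-binding nuclear protein, had 35.7 and 24.7 CPM with DMSO, 30.4 and 24.9 CPM under compound 4, 21.2 and 19.9 CPM under compound 5, and 34.9 and 30.6 CPM under compound 6. Its fall with compound 5 (-0.55, SE 0.18, adjusted p = 0.0449) rested on DMSO libraries that were themselves far apart, and was not called with RLE scaling (adjusted p = 0.0537), DESeq2 (0.0559), the length trend removed (-0.37, adjusted p = 0.139) or without replicate 1 of DMSO (-0.26, adjusted p = 0.373). TRIM16L, a little studied relative of TRIM16, lay between 2.82 and 5.43 CPM with 59% of its 31-base words shared with other genes, and was not called.

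**Figure D3:**
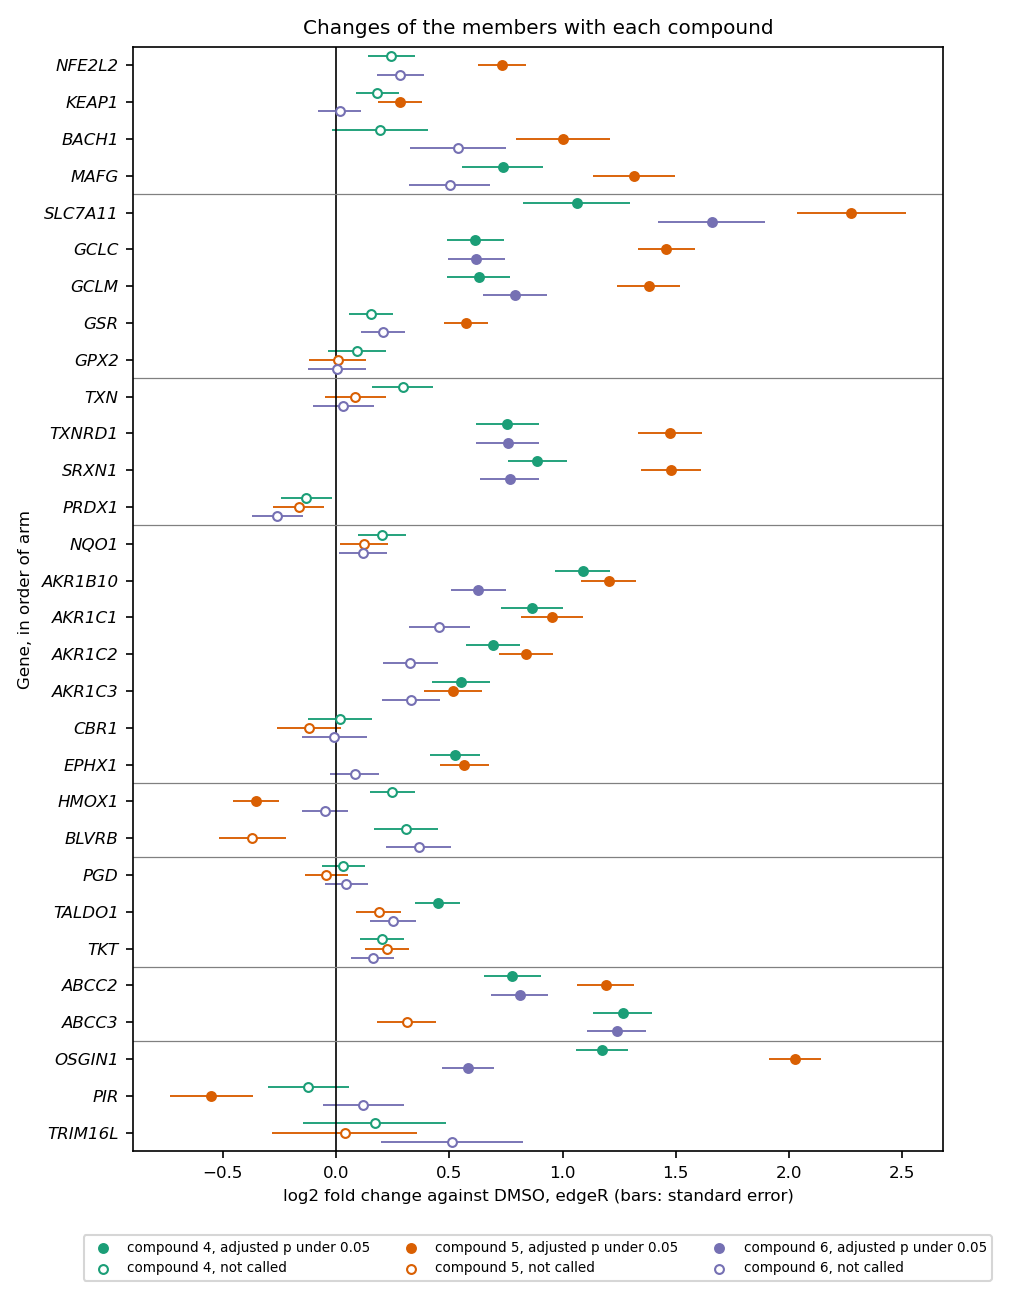
The log2 fold changes over DMSO (horizontal axis, bars of 1 SE) of the 30 tested members, by arm, for compounds 4, 5 and 6; filled points had an adjusted p under 0.05. Estimates run from -0.55 for PIR to 2.27 for SLC7A11, both with compound 5.

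In all, 21 members were called with at least 1 compound. The other 9 were GPX2, TXN, PRDX1, NQO1, CBR1, BLVRB, PGD, TKT and TRIM16L. Their estimates ran from -0.13 to 0.31 with compound 4, -0.37 to 0.22 with compound 5 and -0.26 to 0.51 with compound 6. With compound 6, replicate 2 exceeded replicate 1 in 8 of the 9 called members and in 17 of the 30 tested. The compound 6 calls were lost with single libraries: 1 member was called without replicate 2 of compound 6, 1 without replicate 1 of DMSO, and 0 without replicate 2 of DMSO, when 1 of all 13404 genes was called. With compound 4, fewer members were called without either replicate of DMSO, as were fewer of all genes tested.

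The 3 pairs of compounds were then compared directly, each at its own IC50. Between compounds 5 and 4, 9 members were higher and 3 lower with compound 5 (6.91% and 7.04% of all genes). NFE2L2 was higher by 0.49 (SE 0.10, adjusted p = 0.0166), BACH1 by 0.81 (SE 0.21, adjusted p = 0.03), SLC7A11 by 1.21 (SE 0.23, adjusted p = 0.0112), GCLC by 0.84 (SE 0.12, adjusted p = 0.00543) and OSGIN1 by 0.85 (SE 0.11, adjusted p = 0.00455). GCLM, GSR, TXNRD1 and SRXN1 were also higher, by 0.42 to 0.75. The lower genes were ABCC3 (-0.95, SE 0.13, adjusted p = 0.00489), HMOX1 (-0.60, SE 0.10, adjusted p = 0.008) and BLVRB (-0.68, SE 0.14, adjusted p = 0.0169). HMOX1 kept its call when the length trend was removed (-0.43, adjusted p = 0.0103). The difference of MAFG, 0.58 (SE 0.18), was at the threshold (adjusted p = 0.0512, and 0.025 with the replicate block). It was called with RLE scaling (0.0437), by DESeq2 (0.0113) and with no filter (0.00015). The same held with a minimum of 10 counts per library (0.0393) and with only the groups compared (0.0444). Upper-quartile and library-size scaling and removal of the length trend gave no call. The difference of BACH1 ran from 0.47 without replicate 2 of compound 4 to 1.26 without replicate 1, and was not called in a fit of only the groups compared (adjusted p = 0.0755). GSR was not called in that fit either (0.0519). ABCC2 was not called in the main fit but was called higher by DESeq2 (0.44, adjusted p = 0.0108). It was also called with RLE scaling (0.0428), no filter (0.00168) and a minimum of 10 counts per library (0.0447). TALDO1 was called lower with library-size scaling (-0.33, adjusted p = 0.0478). In the quinone and carbonyl arm no gene was called between compounds 5 and 4, with intervals from -0.45 to 0.41.

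Between compounds 5 and 6, 12 members were higher and 3 lower with compound 5 (4.76% and 5.16% of all genes). OSGIN1 had the largest difference (1.44, SE 0.11, adjusted p = 0.000196). Among the members called higher, GCLC (0.84, SE 0.12, adjusted p = 0.00446), MAFG (0.81, SE 0.18, adjusted p = 0.0186), TXNRD1 (0.72, SE 0.14, adjusted p = 0.0121) and SRXN1 (0.71, SE 0.13, adjusted p = 0.00951) followed. Carbonyl reductases and epoxide hydrolase were also called, with AKR1B10 higher by 0.58 (adjusted p = 0.0163), AKR1C2 by 0.51 (adjusted p = 0.0246), AKR1C1 by 0.50 (adjusted p = 0.0441) and EPHX1 by 0.48 (adjusted p = 0.0213). NFE2L2, GCLM and GSR were also higher, GSR only without the replicate block (adjusted p = 0.0415, and 0.0531 with it). ABCC3 (-0.93, SE 0.13, adjusted p = 0.00386), BLVRB (-0.73, SE 0.15, adjusted p = 0.0133) and PIR (-0.67, SE 0.18, adjusted p = 0.0441) were lower. With the length trend removed, AKR1C1 and PIR were not called (adjusted p = 0.0649 and 0.0639), whereas ABCC2 and KEAP1 were called higher with compound 5 (0.34 and 0.31, adjusted p = 0.0399 and 0.0283). AKR1C1 and GSR were not called under upper-quartile scaling (0.0834 and 0.0985) or library-size scaling (0.0652 and 0.0795), under which HMOX1 was called lower with compound 5 (0.0389 and 0.0358). ABCC2 was also called higher by DESeq2 (0.40, adjusted p = 0.0271). SLC7A11 and BACH1 were called higher in a fit of only the groups compared (0.62 and 0.47, adjusted p = 0.0459 and 0.0329). Fewer members were called between these compounds without either replicate of compound 5 or replicate 1 of compound 6, as were fewer of all genes tested. Between compounds 5 and 4 the same held without either replicate of compound 5. When 1 library was left out, the median difference of the members ran from 0.25 to 0.34 over compound 6. Over compound 4 it ran from 0.015 to 0.11.

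Compounds 4 and 6, which differ in the tert-butyl or cyclohexyl group next to the hydroxyl, gave 0 called members by edgeR (0.0448% of all genes were called). At an unadjusted p under 0.05 there were 7, against 9.81% of all genes. DESeq2 called 1, OSGIN1 (adjusted p = 0.00761), and 72 of all 13404 genes. The lowest edgeR adjusted p was 0.149, for OSGIN1, which was higher with compound 4 by 0.59 (95% interval 0.34 to 0.84). Intervals also lay above 0 for AKR1B10 (0.20 to 0.73), EPHX1 (0.20 to 0.68), AKR1C1 (0.11 to 0.71), AKR1C2 (0.10 to 0.63) and HMOX1 (0.075 to 0.52) and below 0 for SLC7A11 (-1.10 to -0.09). For TXNRD1 (-0.31 to 0.30), GCLC (-0.28 to 0.27) and ABCC3 (-0.25 to 0.31) the intervals were centred near 0. Over the 30 members the bounds ran from -1.10 to 0.84.

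**Figure D4:**
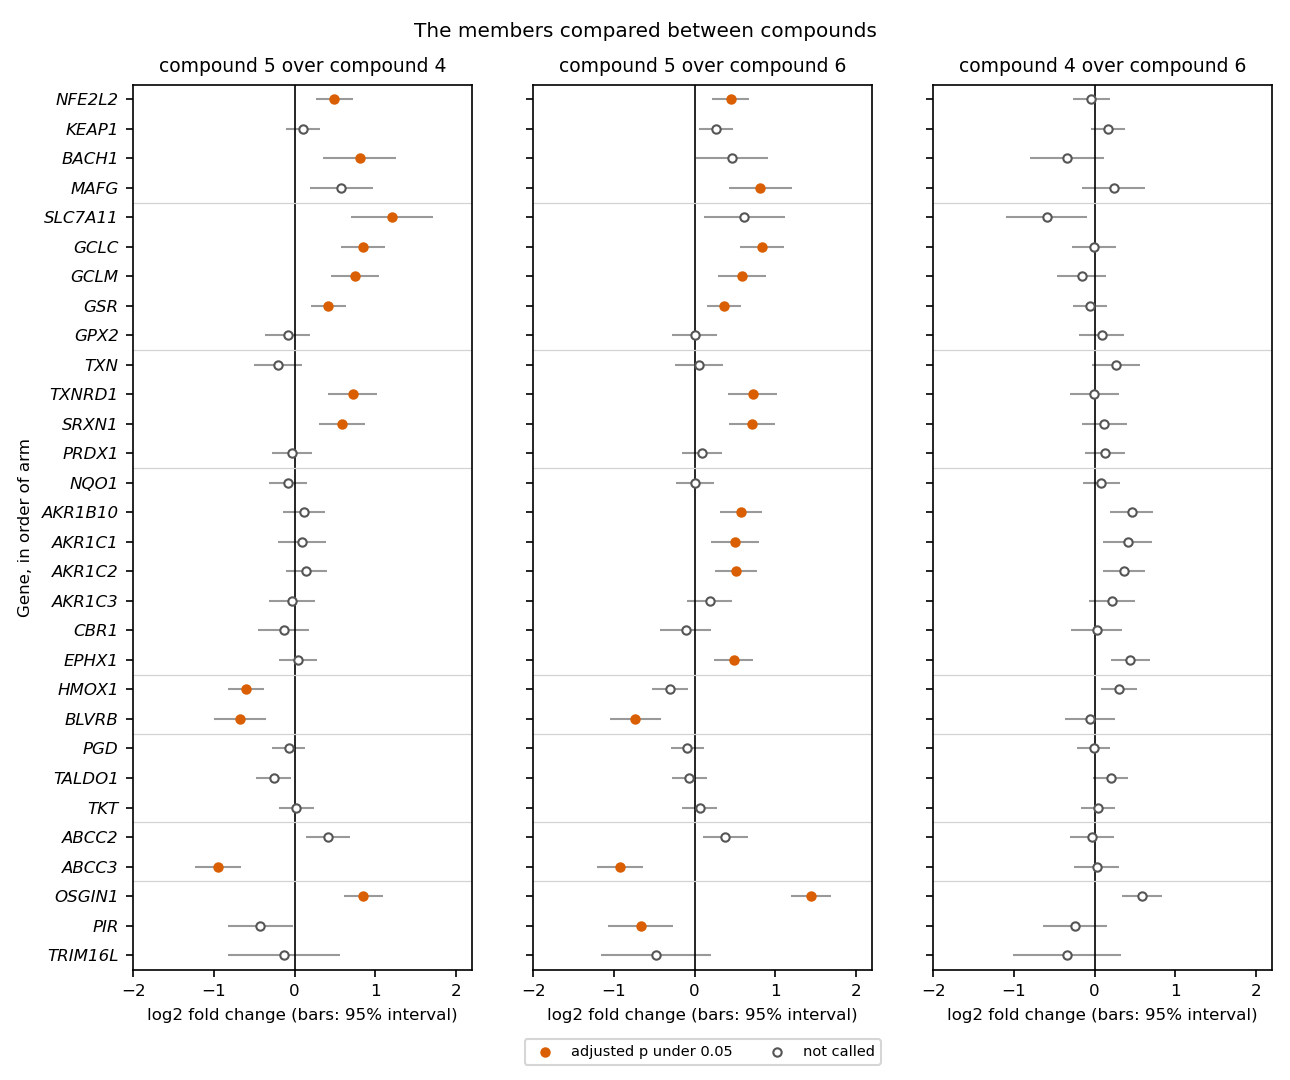
Log2 fold changes between compounds (horizontal axes, bars of the 95% interval) of the 30 tested members, by arm; filled points had an adjusted p under 0.05. Compound 5 exceeds the other compounds in the GCLC, GCLM, GSR, TXNRD1, SRXN1 and OSGIN1 rows and lies below them for ABCC3 and BLVRB, and no point is filled between compounds 4 and 6.

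A list of 75 further pathway genes, chosen with earlier results known, was described in the same arms. Of these, 68 were tested. Compound 4 raised 10 and lowered 5, compound 5 raised 14 and lowered 17, and compound 6 raised 7 and lowered 1, against the shares of all genes given above. The counts rested on single libraries: compound 6 raised 0 without replicate 2 of DMSO and 1 without replicate 1 of DMSO or replicate 2 of compound 6. Without replicate 1 and replicate 2 of DMSO compound 4 raised 6 and 4 and lowered 3 and 1, and compound 5 lowered 9 and 10. Compound 5 lowered 8 and 10 without its own replicates 1 and 2, and 24 under library-size scaling. In the regulator arm (12 tested) 4, 4 and 2 genes rose with compounds 4, 5 and 6, and 1 fell with compound 5 (2 under upper-quartile or library-size scaling). SQSTM1, the autophagy receptor that binds KEAP1, changed by 1.84, 2.19 and 1.30 (adjusted p = 0.000336, 6.68e-05 and 0.00465), the largest in that arm with each compound. MAFF, another small MAF gene, had 19.6 and 18.7 CPM with DMSO, 30.5 and 41.7 CPM under compound 4, 51.9 and 62.2 CPM under compound 5, and 24.8 and 34.3 CPM under compound 6, and passed the test with compounds 4 (0.92, adjusted p = 0.0121) and 5 (1.57, adjusted p = 0.000359). MAFK, the third small MAF gene and named after its values were seen, rose with all compounds (1.09, 2.16 and 0.71, adjusted p = 0.00296, 6.68e-05 and 0.0447). With compound 6 the adjusted p was 0.0576 with the replicate block and 0.0504 with library-size scaling. Without replicate 2 of compound 6 that change was 0.36.

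In the glutathione list (9 tested), SLC3A2, the heavy chain that pairs with SLC7A11, had 237 and 201 CPM with DMSO, 473 and 543 CPM under compound 4, 1152 and 1257 CPM under compound 5, and 349.8 and 514 CPM under compound 6. The gene rose with each compound (1.21, 2.46 and 0.98, adjusted p = 0.00179, 3.71e-05 and 0.0125). GLRX, glutaredoxin, also rose (1.35, 1.15 and 0.75, adjusted p = 0.000487, 0.000394 and 0.0179). With compound 5, 4 genes of this list fell, among them GPX3, an extracellular glutathione peroxidase, by 0.66 on the log2 scale (adjusted p = 0.00871), and GSS, glutathione synthetase, by 0.53 (adjusted p = 0.00839); both were named after their values were seen. With the length trend removed 2 genes of this list were called lower, and without a single library of DMSO or compound 5 between 1 and 3 were.

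Of the 9 thioredoxin genes tested, 0 were called with compounds 4 and 6 and 4 fell with compound 5, the largest change being that of TXNRD3, a testis-enriched thioredoxin reductase, by 1.02 (adjusted p = 0.0041). Under upper-quartile and library-size scaling 8 of the 9 were called lower with compound 5, and with the length trend removed 3 were lower and 1 higher. Without either replicate of DMSO or replicate 1 of compound 5 the number called lower was 2. In the quinone and carbonyl list (9 tested), 1 rose and 1 fell with compound 4, 2 rose and 2 fell with compound 5, and 0 were called with compound 6. PTGR1, which reduces unsaturated aldehydes and ketones, rose with compounds 4 and 5 (0.82 and 1.12, adjusted p = 0.00549 and 0.000504). With compound 6 PTGR1 was called only in some alternatives. These were DESeq2 (0.54, adjusted p = 0.0456), no filter (0.00612) and removal of the length trend (0.0374). EPHX2, the soluble epoxide hydrolase, had 22.2 and 18.7 CPM with DMSO and 6.51 and 8.56 CPM under compound 5, against 16.9 to 18.6 CPM with the other compounds. It fell with compound 5 by 1.43 (adjusted p = 0.000337), opposite to the microsomal enzyme EPHX1. Of the 7 heme and iron genes, 2 rose and 1 fell with compound 4, 1 rose and 1 fell with compound 5, and 0 were called with compound 6. The 1 that rose with compound 5 was not called with the replicate block (adjusted p = 0.0507) or under upper-quartile or library-size scaling (0.107 and 0.0895). Another was called higher with compound 5 with RLE scaling and by DESeq2 (adjusted p = 0.0392 and 0.0154). FLVCR1, a heme exporter, had the largest called change with compounds 4 and 5 and fell by 0.63 and 0.43 (adjusted p = 0.00829 and 0.0224), the second not called by DESeq2 (adjusted p = 0.0542).

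In the NADPH list (13 tested), 0 rose and 2 fell with compound 4, 1 rose and 3 fell with compound 5, and 1 rose and 1 fell with compound 6. IDH1, the cytosolic NADP-dependent isocitrate dehydrogenase, had 578 and 569 CPM with DMSO, 287 and 301 CPM under compound 4, 263 and 254 CPM under compound 5, and 456 and 354 CPM under compound 6. All treated libraries were below DMSO, and IDH1 fell by 0.96, 1.15 and 0.50 (adjusted p = 0.00125, 0.000203 and 0.0445). With compound 6 IDH1 was the 1 gene of the list called lower, and that call was lost with the replicate block (-0.51, adjusted p = 0.0515). Without replicate 2 of compound 6 its change with compound 6 was -0.32. MTHFD2, a mitochondrial folate enzyme, rose with compounds 5 and 6 (1.44 and 0.93, adjusted p = 0.000359 and 0.0166), and with the replicate block it was called with compound 4 as well (0.53, adjusted p = 0.0383). Without replicate 2 of compound 6 the MTHFD2 change with compound 6 was 0.59. Of the 4 further pumps, 1, 2 and 1 rose with compounds 4, 5 and 6 and 0 fell, and ABCC1 rose with each compound (0.53, 0.82 and 0.56, adjusted p = 0.0234, 0.0013 and 0.0365, the last 0.0518 with the replicate block). With that block another pump was called higher with compound 4 (0.44, adjusted p = 0.0221). Among the remaining genes (5 tested), 1 fell with compound 4, 2 rose and 2 fell with compound 5, and 1 rose with compound 6. CAT, catalase, fell with compounds 4 and 5 by 0.51 and 0.71 (adjusted p = 0.0179 and 0.00176), and SESN2, sestrin, rose with compounds 5 and 6 (1.53 and 0.90, adjusted p = 0.000396 and 0.0287). Without replicate 2 of compound 6 the SESN2 change with compound 6 was 0.52. TRIM16 was not called with any compound.

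**Figure D5:**
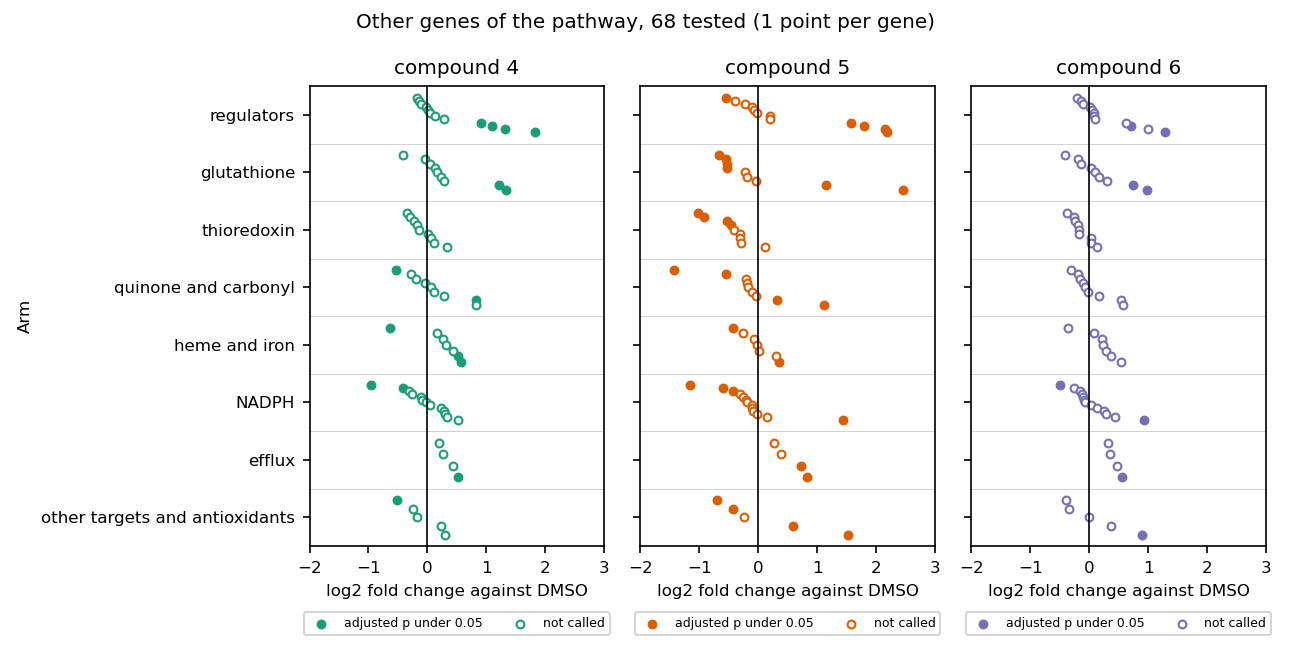
The log2 fold changes over DMSO (horizontal axes) of the 68 other pathway genes tested, 1 point per gene, by arm, with compounds 4, 5 and 6; filled points had an adjusted p under 0.05. With compound 5 the filled points lie on both sides of 0, from -1.43 for EPHX2 to 2.46 for SLC3A2.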

How the data were processed

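RNA of CYP3A4-overexpressing HepG2 cells was analysed in 8 libraries (DMSO and compounds 4, 5 and 6, each with 2 replicates) made with a strand-specific kit. Per the labels, replicate 1 of compounds 4 and 5 each merges 2 sequencing indices. Reads were quantified against GENCODE transcripts by the authors with Salmon 1.5.0 and tximeta, and the deposited values are estimated counts per gene, unscaled. These values were rounded to whole numbers where needed. The deposited table gives Ensembl identifiers. Symbols came from a table of gene names, and coordinates, transcript lengths and shared 31-base words from GENCODE 29 on GRCh38, in which 57972 of 60230 identifiers were found. Read sharing was therefore measured on another release than the one used for quantification.

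The main tests used edgeR 4.0.16 under R 4.3.3. Libraries were scaled by TMM (factors 0.958 to 1.04) and filtered by filterByExpr, and a quasi-likelihood model with 4 groups was fitted to all 8 libraries. Calls required an adjusted p (Benjamini-Hochberg, over the 13404 genes tested) under 0.05. The SE is the fold change divided by the root of F. The procedure was tested on simulated data. Alternatives were DESeq2 1.42.0; edgeR with RLE, upper-quartile or library-size scaling, without a filter (1 count or more in all), with a minimum of 10 counts per library, with the replicate number as a block, or with only the groups compared; 8 fits that each left out 1 library, in which the lone library of a group is assumed to vary like the other groups, and, added after seeing the data, removal of the loess trend of each library against transcript length (known for 99.4% of the genes tested).

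The replicate number is the day 1 or day 2 of the labels. The deviations of same-numbered libraries from their group means correlated by -0.083 to 0.16 across 13404 genes. The block was an alternative, since no block is stated in the sources used here.

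Values in every library are given for the regulators, HMOX1, NQO1 and each member called with at least 1 compound, and the other members by range. From the further pathway lists, counts are given, and by name SQSTM1, MAFF, TRIM16, SLC3A2 and the called gene with the largest change of each list with each compound, besides MAFK, GPX3 and GSS, named after their values were seen; 1 further named gene is not reported here. The members and lists were chosen with earlier results of these data known. The listed gene SOD2 and protein sequences were not analysed here.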

Additional observations from a re-analysis of the deposited data

How the results depend on the processing

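ME1 had 0 counts in every library, below the floor of 3 counts, and TRIM16L, at under 6 CPM, had wide intervals. Over the alternatives other than leaving out a library, the members called numbered 15 with compound 4, 17 to 20 with compound 5, 9 to 12 with compound 6, 11 to 14 between compounds 5 and 4, and 14 to 18 between compounds 5 and 6. Between compounds 4 and 6, where edgeR called 0, DESeq2 called 1 and the fit with no filter 5. Over all genes these fits called 6 of 13404, 72 of 13404 and 294 of 22717. When 1 library was left out, the ranges were 6 to 15, 15 to 19 and 0 to 11 with compounds 4, 5 and 6, 2 to 14 between compounds 5 and 4, 2 to 18 between compounds 5 and 6, and 0 to 1 between compounds 4 and 6. Calls over all genes moved both ways in these fits, with compound 6 from 590 to 1 without replicate 2 of DMSO and to 1001 without replicate 1 of compound 6, and with compound 4 from 1598 to 335 without replicate 2 of DMSO and to 1662 without replicate 1 of compound 4; the cause was not tested. Estimates changed sign for KEAP1 with compound 6 (-0.012 with library-size scaling, and -0.012 to 0.077 when a library was left out), for BACH1 with compound 4 (-0.26 to 0.56 when a library was left out), and for HMOX1 with compound 6 (-0.092 to 0.0027 when a library was left out and 1.12e-05 with the length trend removed). The median difference of the members between compounds 5 and 4 was -0.0017 with upper-quartile and -0.00083 with library-size scaling, and that between compounds 4 and 6 ran from -0.013 to 0.14 when a library was left out. With the replicate block the members called were 15, 18 and 9 with compounds 4, 5 and 6, and it changed no call of the members other than those of KEAP1, GSR and MAFG given above. The scalings moved the median log2 fold change of all genes with compound 5 from -0.03 to -0.12 (upper quartile) and -0.14 (library size). With the length trend removed 19 members were called with compound 5, all 19 higher.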

Other observations

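In each of the 8 libraries AKR1C1 exceeded AKR1C2 by 20.7-fold to 24.9-fold in CPM, a ratio that is not corrected for transcript length and rests on genes that share much of their sequence. Among the further pathway genes, GPX8, GSTP1, CBR3 and HTATIP2 had 0 counts in every library, as did 37513 of all 60230 genes. GSTP1 encodes a glutathione transferase and CBR3 a carbonyl reductase, and neither was compared between groups.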
